A study of Mus musculus with 23 samples.

Results

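Intact back skin taken on day 0 of a mouse wound study was of 2 kinds. In 2 of its 6 libraries the transcripts of growing hair follicles were abundant, and in the other 4 they were scarce. The members of the 2 classes were chosen by the level of a single gene, Tchh, which encodes trichohyalin, a protein that hardens the inner root sheath of the hair follicle. Above 100 CPM (the gene's count scaled to a library total common to all) a library was called hair-growing, and below it resting. The hair-growing libraries are adalimumab replicates 2 and 3, at 825 and 7365 CPM of Tchh. The resting libraries are adalimumab replicate 1, at 7.74 CPM, and control replicates 1, 2 and 3, at 3.51, 3.18 and 4.60 CPM. No library lay between 7.74 and 825 CPM. The 6 libraries are part of a series of 23.

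All mice carried HTNF ki/ki and Lepr db/db. The db allele removes leptin receptor signalling, and such mice are obese and diabetic. They were 8 to 12 weeks old, and their backs were shaved and treated with a hair removal cream. Full-thickness wounds were made with a 6 mm punch on day 0, and tissue was collected with an 8 mm punch. The control arm received the vehicle, PBS, and the other arm was given adalimumab, an antibody against human TNF, under the skin on days 0, 3, 7 and 10 (20 mg per kg). The labels do not say whether the skin of day 0 was taken before or after the first injection. Both hair-growing libraries are in the adalimumab arm, so that hair class and arm cannot be told apart, except against the single resting library of that arm. The mouse numbers in the labels were 7 and 8 for the hair-growing libraries and 6, 15, 16 and 17 for the resting ones, and libraries of day 3 carry the same numbers. Each library is read here as 1 mouse.

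Hair follicles cycle through growth, regression and rest. In growth, the dermal papilla, a knot of specialised fibroblasts, signals to the matrix, a cup of dividing epithelial cells, which builds the hair shaft and the inner root sheath around it. Pigment cells in the matrix pass melanin to the shaft only while it grows. In rest, the follicle is a short pocket of bulge stem cells around a finished hair. The back skin of adult mice is known to enter growth in patches, so that neighbouring sites can be in different phases.

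The 6 libraries were of nearly equal depth, 35354164 to 37193052 counts, with a count in 27466 to 29894 genes each. Xist transcripts, made in females, were present in all of them. Because Tchh of these same libraries chose the groups, every difference on day 0 is given as a description with no test. A gene is called higher or lower below where its log2 difference (hair-growing minus resting, fitted with edgeR) was at least 1 and the 2 groups of libraries did not overlap in scaled CPM. Unless stated otherwise, CPM below are scaled by TMM, which corrects for the few genes that take up many counts, and values after ± are the SE of the log2 difference. Of 20776 genes measured, 1979 were higher (9.53%) and 1839 lower (8.85%). Genes at or near 0 in the resting libraries passed the filter on low counts through the hair-growing ones alone. For such genes, counts of higher members describe them and support nothing. With column totals in place of TMM the counts were 2692 and 1102, since that scaling moves the median of all genes by 0.228 on the log2 scale. In whole-skin libraries, fewer cells of a type and less RNA per cell cannot be told apart.

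**Figure D1:**
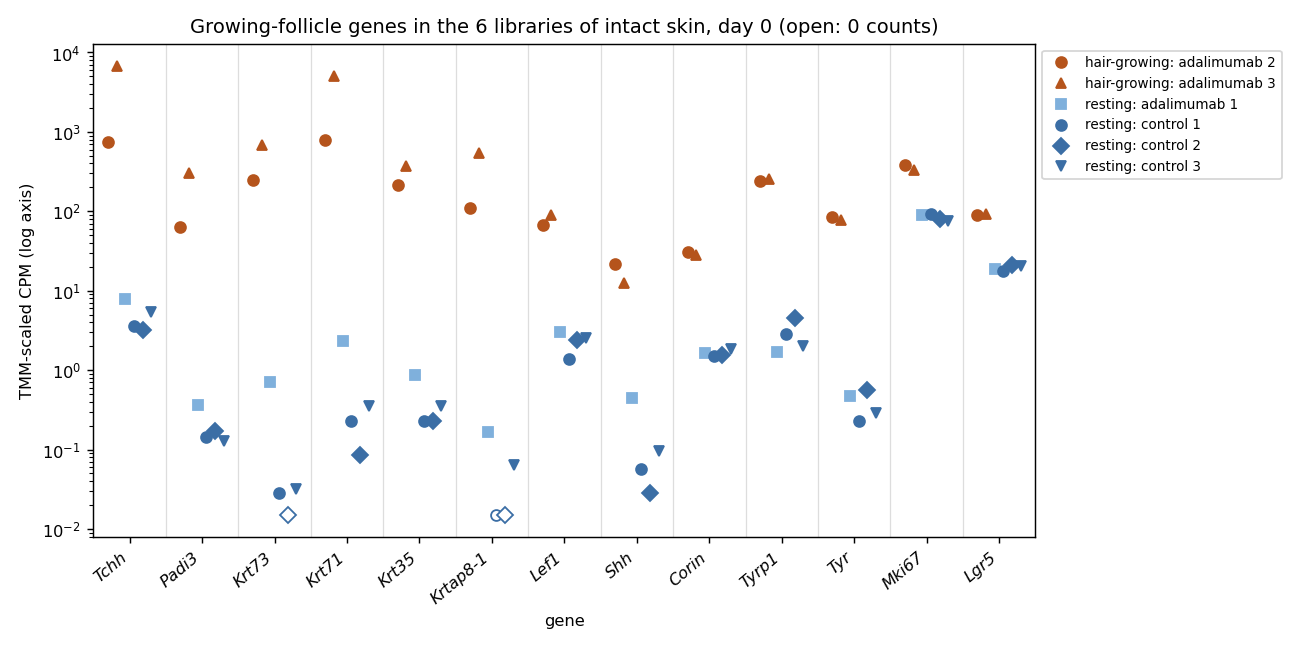
Scaled CPM (log axis) of 13 growing-follicle genes in each of the 6 libraries of day 0; brown symbols are the 2 hair-growing libraries, blue symbols the 4 resting ones, and open symbols mark 0 counts. For every gene plotted the brown symbols lie above all blue ones, including Mki67 (335 and 382 against at most 91.2 CPM) and Lgr5 (89.9 and 91.3 against at most 20.9 CPM). The genes were picked for the figure, and members of the follicle lists that overlap, such as Axin2, Gata3 and Krtap3-2, are not drawn. Lgr5 is from the list of bulge stem cell genes and resting-phase signals, where 3 of 13 were higher and 3 lower.

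The other marker genes split the libraries the same way as Tchh. Padi3, an enzyme that modifies trichohyalin, stood at 64.1 and 304 CPM in adalimumab replicates 2 and 3, against 0.364 in adalimumab replicate 1 and 0.142, 0.171 and 0.127 in the controls. Krt73, a keratin of the inner root sheath cuticle, stood at 245 and 679 CPM against 0.701, 0.0284, 0 and 0.0317. Tyrp1, an enzyme of melanin synthesis, stood at 239 and 258 CPM against 1.68, 2.84, 4.52 and 2.03. The hair-growing libraries were high in all of these, with no overlap. Among the resting libraries, adalimumab replicate 1 was the highest in Tchh, Padi3 and Krt73 but the lowest in Tyrp1.

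Start sites of some genes that were higher in the hair-growing libraries are shown to let the sheath, shaft and pigment genes be compared as sequence. The windows are RefSeq promoters (GRCm38.p6, another build than the GRCm39 of the counts) from 250 bases before to 50 bases after the annotated start, 5′ to 3′ on the gene's strand. Capitals mark TATAAA (the box found near many start sites, searched on the gene's strand) and CTTTGA or TCAAAG (the core bound by Lef1 and its relatives) in the first 4 windows, and CATGTG or CACATG (an E-box of the type bound by Mitf) in the last 2. The windows are Tchh at chr3:93442080-93442379 (+), Krt71 at chr15:101743048-101743347 (-), Krt73 at chr15:101802311-101802610 (-), Krtap3-1 at chr11:99566581-99566880 (-), Tyrp1 at chr4:80833963-80834262 (+) and Tyr at chr7:87493463-87493762 (-).
Tchh: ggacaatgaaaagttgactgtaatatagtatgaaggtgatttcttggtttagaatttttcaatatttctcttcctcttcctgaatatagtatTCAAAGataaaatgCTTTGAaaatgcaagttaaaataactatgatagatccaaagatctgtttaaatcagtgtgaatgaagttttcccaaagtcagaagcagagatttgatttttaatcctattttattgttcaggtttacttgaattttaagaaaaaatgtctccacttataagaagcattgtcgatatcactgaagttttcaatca
Krt71: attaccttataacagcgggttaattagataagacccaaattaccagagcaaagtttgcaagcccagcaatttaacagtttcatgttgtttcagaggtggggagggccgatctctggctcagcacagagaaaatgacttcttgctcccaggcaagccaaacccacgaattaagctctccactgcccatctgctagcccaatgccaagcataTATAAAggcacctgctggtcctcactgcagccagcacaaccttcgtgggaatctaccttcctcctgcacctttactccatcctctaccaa
Krt73: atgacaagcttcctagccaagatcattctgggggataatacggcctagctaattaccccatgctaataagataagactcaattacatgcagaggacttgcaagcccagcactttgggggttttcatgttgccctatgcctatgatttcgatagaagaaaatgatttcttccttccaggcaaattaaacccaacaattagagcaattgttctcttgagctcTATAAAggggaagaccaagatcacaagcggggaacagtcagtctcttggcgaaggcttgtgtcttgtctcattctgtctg
Krtap3-1: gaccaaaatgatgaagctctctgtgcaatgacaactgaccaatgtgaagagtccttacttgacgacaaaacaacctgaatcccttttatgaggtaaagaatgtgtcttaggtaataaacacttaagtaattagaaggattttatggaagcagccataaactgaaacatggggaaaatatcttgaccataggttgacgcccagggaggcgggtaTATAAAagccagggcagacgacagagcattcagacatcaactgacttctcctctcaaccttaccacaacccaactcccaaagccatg
Tyrp1: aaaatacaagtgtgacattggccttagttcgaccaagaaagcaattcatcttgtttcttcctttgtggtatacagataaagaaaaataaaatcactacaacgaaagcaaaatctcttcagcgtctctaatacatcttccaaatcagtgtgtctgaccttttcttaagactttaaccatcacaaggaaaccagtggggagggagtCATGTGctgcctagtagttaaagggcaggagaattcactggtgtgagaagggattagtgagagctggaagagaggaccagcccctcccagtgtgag
Tyr: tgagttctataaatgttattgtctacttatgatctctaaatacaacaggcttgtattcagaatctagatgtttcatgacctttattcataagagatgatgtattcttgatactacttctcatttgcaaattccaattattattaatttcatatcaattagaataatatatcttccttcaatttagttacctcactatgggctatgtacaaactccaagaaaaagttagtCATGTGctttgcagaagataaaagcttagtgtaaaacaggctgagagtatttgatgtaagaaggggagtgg

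In the inner root sheath keratins Krt71 and Krt73, TATAAA begins 40 and 30 bases before the start, and in the shaft gene Krtap3-1 it begins 37 bases before. Tchh has no TATAAA in its window but holds CTTTGA 144 bases and TCAAAG 158 bases before the start. In the pigment genes Tyrp1 and Tyr, CATGTG begins 46 and 21 bases before the start. In the pigment gene Dct, whose window is not shown, CATGTG begins 150 bases and CACATG 232 bases before the start. Over the lists, TATAAA was found in 38 of 47 keratin-associated protein genes with a window (80.9%), in 7 of 11 inner root sheath genes (63.6%) and in 5 of 9 shaft keratins (55.6%). It was in 6.79% of the windows of 13397 genes measured on day 0 and in 9.77% of all 27025. CATGTG or its reverse was in 7 of 9 pigment genes (77.8%), against 11.9% of measured genes, and also in 18 of 47 keratin-associated protein genes (38.3%). CTTTGA or its reverse was in 5 of 9 shaft keratins (55.6%), 15 of 47 keratin-associated protein genes (31.9%) and 2 of 11 inner root sheath genes (18.2%), against 15.3% of measured genes. Neighbouring keratin-associated protein genes are near copies of each other, so that their windows are not independent.

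The inner root sheath, a hardened tube that guides the growing hair, gave among the largest differences of the skin. Of 12 genes on its list, 11 were higher and 0 lower in hair-growing skin, with a median log2 difference of 9.06, beside a median of -0.0011 over all genes. Here too, members near 0 in resting skin, such as Krt73, were measured only because the hair-growing libraries hold them. Krt71, a keratin of all sheath layers, stood at 793 and 5084 CPM against 2.30 in adalimumab replicate 1 and 0.227, 0.0853 and 0.348 in the controls (11.94 ± 1.11). Krt27 stood at 214 and 1856 CPM against 0.953, 0.511, 0.142 and 0.253 (11.10 ± 0.92). Krt25 stood at 591 and 3125 CPM against 2.16, 0.284, 24.1 and 0.539 (8.10 ± 1.52). The exception among the resting libraries was control replicate 2, at 24.1 CPM of Krt25, and without it the Krt25 difference was 10.85. Gata3, a transcription factor of the sheath that other epidermal and immune cells also make, was the member that was not called, at 141 and 154 CPM against 100.1 to 211.

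The hair shaft is built from hair keratins and from keratin-associated proteins, small cysteine-rich or glycine- and tyrosine-rich proteins that bind the keratin filaments together. All 14 measured hair keratins were higher, with a median of 9.52. This count is a description only, since members near 0 in resting skin, such as Krt81, passed the filter on low counts through the hair-growing libraries alone. Krt35, a keratin of the early shaft, stood at 217 and 374 CPM against 0.869 in adalimumab replicate 1 and 0.227, 0.228 and 0.348 in the controls (9.45 ± 0.49). Krt33a stood at 82.6 and 456 CPM against 0.420, 0.653, 0.171 and 0.158 (9.56 ± 0.79). Krt81 stood at 33.5 and 457 CPM and had 4 counts over the resting libraries together (12.88 ± 2.20). Krt32, a shaft cuticle keratin, was the least different of the 14, at 25.2 and 76.5 CPM against 17.5, 11.0, 6.28 and 4.50 (2.37 ± 0.60).

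Of 58 keratin-associated protein genes in the table, 54 passed the filter on low counts and 53 of these were higher. The median was 11.80, or 11.23 with the 10 members at 0 in all resting libraries set to a bound of 3 counts over the group. Members at or near 0 in resting skin passed that filter through the hair-growing libraries alone, so the count of higher members describes them and supports nothing. Krtap8-1 stood at 109 and 536 CPM against 0.168, 0, 0 and 0.0634, in the order used above (12.36 ± 1.30). Krtap7-1 stood at 66.7 and 672 CPM against 0.308, 0.0284, 0 and 0 (12.00 ± 1.53). Krtap3-1 stood at 12.9 and 222 CPM with 0 counts in all 4 resting libraries. The member that was not called was Krtap3-2, at 19.0 and 190.0 CPM against 3.28, 2.90, 21.1 and 2.72, where control replicate 2 exceeded a hair-growing library. Without control replicate 2 all 54 were higher. Reads from near-identical copies in this family can be split between genes, so that single values are uncertain. Together the 84 sheath and shaft genes took 0.486% and 3.27% of all counts in the hair-growing libraries and 0.0163% to 0.0257% in the resting ones.

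Regulators of the matrix differed less than the sheath and shaft genes. Of 18 regulators of the growing follicle, 14 were higher and 0 lower (median 3.30). Shh, the signal that drives the follicle down into the dermis, stood at 21.9 and 12.5 CPM against 0.449, 0.0568, 0.0284 and 0.0950 (6.72 ± 0.77). Its receptor and target Ptch1 stood at 180.2 and 128 CPM against 23.6, 28.2, 28.9 and 27.8 (2.51 ± 0.17), and its target Gli1 at 71.9 and 62.0 CPM against 6.34, 7.04, 7.93 and 6.68 (3.26 ± 0.16). The 3 genes of this pathway were higher in replicate 2 than in replicate 3. Ptch1 and Gli1 varied little among the resting libraries.

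Transcription factors of the matrix showed the opposite order between the hair-growing libraries. Lef1, which carries the Wnt signal to shaft genes, stood at 67.9 and 88.6 CPM against 3.00, 1.39, 2.39 and 2.53 (5.07 ± 0.28). Dlx3, needed for shaft and sheath formation, stood at 132 and 226 CPM against 2.07, 1.73, 5.49 and 1.81 (6.01 ± 0.49). Hoxc13, an activator of hair keratin genes, stood at 77.8 and 109 CPM against 9.28, 4.66, 4.10 and 7.41 (3.88 ± 0.34). Msx2 (4.12 ± 0.50) and Foxn1 (3.35 ± 0.36), which also act on shaft keratin genes, were higher too. Not all of the list differed: Axin2, a target of Wnt signalling in many cells, stood at 30.9 and 33.6 CPM against 34.6, 29.1, 11.7 and 30.3 (0.29 ± 0.38), and the ligand Wnt10a had a log2 difference of -0.88 ± 0.33.

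The dermal papilla list held 20 genes, of which 11 were higher and 0 lower (median 1.42). Corin, a protease of the papilla, stood at 30.4 and 28.3 CPM against 1.63, 1.505, 1.54 and 1.87 (4.16 ± 0.18). Vcan, the matrix proteoglycan versican, stood at 185 and 109 CPM against 14.9, 14.1, 34.3 and 9.82 (3.01 ± 0.48). Wif1, a secreted Wnt inhibitor, stood at 62.1 and 48.2 CPM against 5.13, 5.71, 8.82 and 5.92 (3.11 ± 0.25), and Alx4 at 20.3 and 12.2 CPM against 1.32, 1.19, 1.19 and 1.77 (3.57 ± 0.29). These 4 were higher in replicate 2 than in replicate 3. Of all 20, 4 were higher in replicate 3, among them Spon1 at 40.4 and 60.8 CPM and the ligand Wnt5a at 99.8 and 113 CPM. Without control replicate 2, 14 of the 20 were higher, beside 11.4% of all genes.

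Pigment cell genes were higher by similar amounts in both hair-growing libraries. Of 14, 13 were higher and 0 lower, with a median of 5.95. Tyr, the rate-limiting enzyme of melanin synthesis, stood at 85.7 and 78.6 CPM against 0.477, 0.227, 0.569 and 0.285 (7.70 ± 0.31). Dct stood at 223 and 235 CPM against 3.17, 6.08, 8.73 and 5.13 (5.31 ± 0.34). Pmel, which forms the fibrils on which melanin is laid down, stood at 139.5 and 182 CPM against 4.68, 4.49, 4.95 and 4.21 (5.13 ± 0.15). The melanosome transporter Oca2 stood at 20.7 and 25.3 CPM and had 0 to 0.142 CPM in resting skin. Kit, the receptor that pigment cells need to survive and that mast cells also carry, differed less (2.38 ± 0.42). Mitf, the master regulator of the pigment lineage, was the member not called, at 59.6 and 65.9 CPM against 32.4, 32.2, 40.01 and 40.8 (0.79 ± 0.16). Its groups did not overlap, and with column totals its difference was 1.02.

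Cell division genes were higher in 21 of 22 cases, with a median of 1.84. Mki67, present in cycling cells, stood at 382 and 335 CPM against 89.3, 91.2, 80.6 and 75.6 (2.09 ± 0.15). Top2a, which untangles DNA before division, stood at 231 and 195 CPM against 52.4, 63.8, 53.3 and 51.5 (1.95 ± 0.15). The nucleotide enzyme Rrm2 (2.54 ± 0.21) and the replication helicase subunit Mcm6 (1.51 ± 0.12) were likewise higher. Pcna, the clamp of the replication fork, was the member not called, at 146 and 116 CPM against 68.5 to 79.0 (0.85 ± 0.15), although its groups did not overlap either.

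Genes of the outer layers and of the resting follicle did not all differ in 1 direction. In the outer root sheath and companion layer, 4 of 9 genes were higher and 0 lower, beside 9.53% and 8.85% of all genes. Krt75, of the companion layer, stood at 168 and 437 CPM against 89.0, 56.8, 46.0 and 102 (2.04 ± 0.44), and Krt17 at 397 and 742 CPM against 109, 83.3, 298 and 149.8 (1.83 ± 0.51). The basal keratins Krt5 and Krt14, shared by the epidermis and the outer sheath, were below every resting library without reaching 2-fold (-0.97 ± 0.32 and -0.83 ± 0.24).

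On the list of bulge stem cell genes and signals of the resting phase, 3 of 13 were higher and 3 lower, beside 9.53% and 8.85% of all genes. The list median of -0.13 became 0.12 with column totals. Lgr5, a receptor of active stem cells in the lower follicle, stood at 89.9 and 91.3 CPM against 19.0, 17.7, 20.9 and 20.6 (2.21 ± 0.13). Krt15, a keratin of bulge and basal cells, stood at 968 and 553 CPM against 2601, 1933, 1069.6 and 2007 (-1.32 ± 0.38). Fgf18, which holds follicles at rest, stood at 6.91 and 3.64 CPM against 21.1, 11.6, 13.1 and 19.6 (-1.63 ± 0.35). Bmp2, a brake on the start of growth, stood at 31.2 and 23.9 CPM against 61.7, 44.6, 58.6 and 69.6 (-1.09 ± 0.21, or -0.85 with column totals). Cd34, a surface marker of bulge cells that vessels and fibroblasts also carry, overlapped between the classes (-0.21 ± 0.20, and 0.01 with column totals). Among named genes of these follicle groups, Lef1, Gli1, Foxn1, Msx2, Wnt10a, Krt32, Krtap3-2, Kit, Gata3 and Bmp2 were chosen after their values were seen, and the others came from the naming rule.

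**Figure D2:**
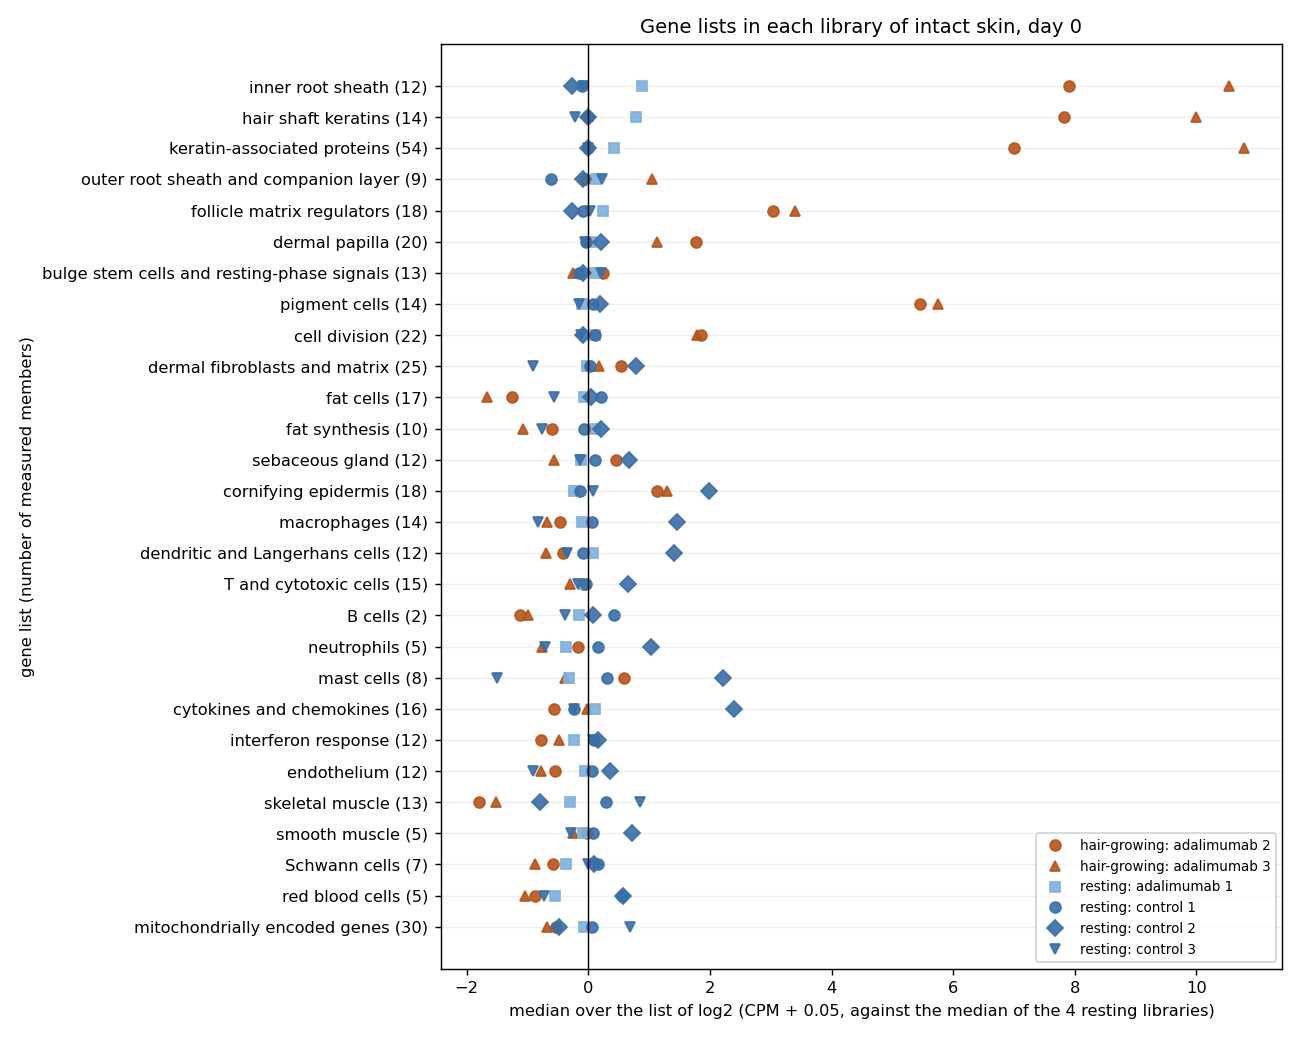
Each row is a gene list (measured members in brackets), and each symbol is 1 library of day 0, placed at the median over the list of log2 CPM relative to the median of the 4 resting libraries (0.05 CPM added). The hair-growing libraries (brown) stand at 7.91 and 10.54 for the inner root sheath and at 5.46 and 5.75 for pigment cells, to the left of all resting libraries for fat cells and skeletal muscle, and within or near their range for most immune lists, where control replicate 2 (diamond) stands apart.

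The hair-growing libraries differed from each other in the genes of the inner root sheath and the shaft. Against the median of the resting libraries, the inner root sheath list stood at 7.91 in replicate 2 and 10.54 in replicate 3, the shaft keratins at 7.82 and 10.00, and the keratin-associated proteins at 6.99 and 10.79, all on the log2 scale. The pigment list stood at 5.46 and 5.75, the matrix regulators at 3.03 and 3.40, and cell division at 1.85 and 1.79. The median log2 ratio of replicate 3 to replicate 2 was 3.90 for keratin-associated proteins, 2.58 for shaft keratins and 2.32 for the inner root sheath. It was 0.14 for pigment cells, 0.29 for matrix regulators, -0.07 for cell division and -0.62 for the dermal papilla. Outside these, it was 0.60 for the outer root sheath, -0.69 for the sebaceous gland and -1.03 for mast cells, of which 0 of 8 were higher in replicate 3. All 54 measured keratin-associated protein genes, all 14 shaft keratins and all 12 sheath genes were higher in replicate 3. These are values of 1 library each, with no replicate behind the ratio.

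Among 1498 called genes of higher abundance (mean log2 CPM 3 or above), 160 lay 2-fold or more apart between the 2 libraries, 128 of them higher in replicate 3. The largest ratios were those of Krtap31-1, at 0.574 and 70.1 CPM (log2 ratio 6.81), and of 4 members of the Krtap19 family of glycine- and tyrosine-rich proteins, Krtap19-4, Krtap19-1, Krtap19-2 and Krtap19-9a (log2 ratios 5.06 to 6.36). Krtap31-1 was at 0 in all resting libraries. In the other direction the melatonin-related receptor Gpr50 stood at 7.36 and 1.00 CPM (log2 ratio -2.82), followed by Cysltr1 (-1.78), by the macrophage elastase Mmp12 at 18.3 and 6.64 CPM (-1.46), and by Lipf and Folh1 (-1.32 and -1.31).

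**Figure D3:**
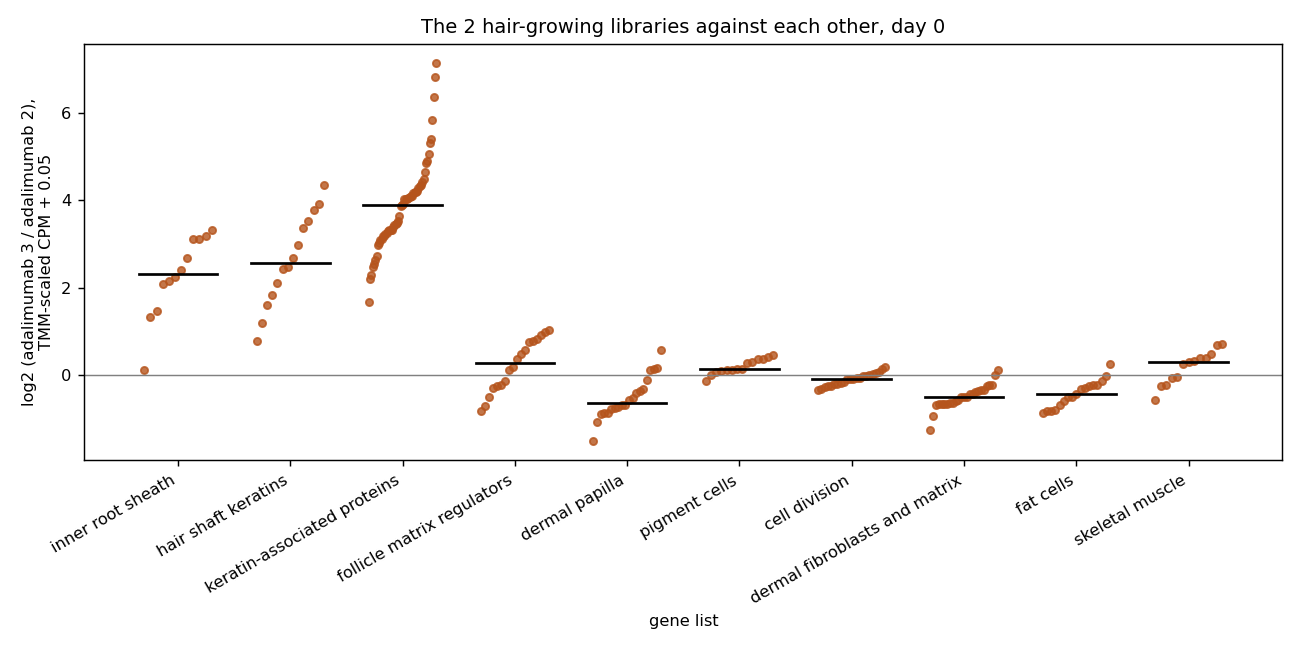
Each point is 1 gene of the list named on the horizontal axis, at the log2 ratio of its scaled CPM (plus 0.05) in adalimumab replicate 3 to that in replicate 2, ordered by value within a list; black bars are list medians. The bars lie at 2.32, 2.58 and 3.90 for sheath, shaft keratin and keratin-associated protein genes and between -0.62 and 0.30 for the other 7 lists drawn.

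Outside the lists, the largest differences upward also included relatives of known follicle genes. Tchhl1, a relative of trichohyalin, stood at 30.3 and 397 CPM against 0.196, 0.0852, 0 and 0 (11.46 ± 1.63). Krt87, another hair keratin, stood at 99.0 and 369 CPM against 0.392, 0.0284, 0.0853 and 0.127 (10.49 ± 0.84). The transglutaminase Tgm6, of an enzyme family that cross-links proteins, had a difference of 10.23 ± 1.18. Crnn, a protein of the same gene family as trichohyalin (10.11 ± 1.10), and the channel protein Calhm4 (11.10 ± 1.06) followed the same pattern. All 5 were highest in replicate 3 and, among the resting libraries, in adalimumab replicate 1. The order among resting libraries rests on few counts, from 7 in all for Tgm6 to 22 for Krt87 and for Crnn. Capn8, also among the largest differences, had its 2 resting counts in control replicate 1.

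The largest differences downward outside the lists were of another kind. Cyp2e1, an enzyme of fat and drug oxidation, stood at 6.71 and 4.95 CPM against 54.4, 78.5, 39.9 and 36.9 (-3.17 ± 0.32). Il22ra2, a soluble decoy that binds interleukin 22, stood at 12.4 and 5.05 CPM against 67.4, 59.8, 31.3 and 53.9 (-2.60 ± 0.40). Thrsp, a regulator of fat synthesis, stood at 21.9 and 14.3 CPM against 139, 142, 93.0 and 37.8 (-2.51 ± 0.49). Mmp12 (-3.10 ± 0.83) was carried in part by control replicate 2, at 261 CPM against 38.8 to 87.9 in the other resting libraries, and without that library it was -2.16. The early response gene Nr4a1 (-2.45 ± 0.95) was at -0.9999 without it.

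Genes of the dermis differed little as a list over all 6 libraries. Of 25 genes of fibroblasts and their matrix, 3 were higher and 0 lower (median 0.17), a share near the 9.53% of all genes that were called higher. Col1a1 stood at 1337 and 949 CPM against 424 in adalimumab replicate 1 and 428, 730.3 and 178 in the controls (1.38 ± 0.48). Col1a2, the partner chain of type I collagen, stood at 1846 and 1172 CPM against 485, 456, 884 and 212 (1.57 ± 0.50). Col12a1, a collagen that binds to type I fibrils, stood at 196 and 168 CPM against 59.5, 52.5, 103 and 39.0 (1.52 ± 0.35). Col3a1 overlapped, at 1816 and 1134 CPM against 1089, 909, 2014 and 387 (0.42 ± 0.57), as did the collagen-binding proteins Sparc (-0.36 ± 0.32) and Dcn (0.01 ± 0.40). Control replicate 2 was the resting library with the highest collagen levels and control replicate 3 the one with the lowest. Without control replicate 2, 8 of 25 were higher and the median was 0.54, where 11.4% of all genes were called higher. Against the median of the resting libraries, the list stood at 0.78 in control replicate 2 and at -0.91 in control replicate 3, on the log2 scale. The counts were not made without control replicate 3, so the values above show the effect of leaving out the high library only.

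Fat cell genes were lower in hair-growing skin. Of 17 genes of mature fat cells, 15 were lower and 0 higher (median -1.39). Lpl, which releases fatty acids from blood lipids, stood at 2948 and 1717 CPM against 6460.0, 8295, 6811 and 4786 (-1.50 ± 0.35). The fatty acid carrier Fabp4 stood at 957 and 822 CPM against 2299.9, 2993, 2441 and 1769 (-1.42 ± 0.26), and the fatty acid transporter Cd36 at 1113 and 616 CPM against 2008, 2514, 2981 and 1327 (-1.35 ± 0.38). Slc2a4, the glucose transporter that insulin brings to the surface, stood at 29.5 and 29.4 CPM against 80.3, 111, 72.9 and 121 (-1.71 ± 0.23). The 2 members not called were Lep, which encodes leptin, at 723 and 414 CPM against 699 in control replicate 3 and 1427 to 2433 in the others, and Cebpa (-0.52 ± 0.21). The fat cell genes summed to 7664 and 5016 CPM in the hair-growing libraries and to 11494 to 20878 CPM in the resting ones, with control replicate 3 the lowest of the latter. The fat layer of mouse skin is known to thicken while hair grows. Here its transcripts took a smaller share in the hair-growing libraries.

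Genes of fat synthesis, active in fat cells and in sebaceous glands, were less uniform: 1 of 10 was higher and 3 were lower (median -0.77). Among all genes, 9.53% were higher and 8.85% lower. Dgat2, which makes triglyceride, stood at 375 and 269.6 CPM against 834, 1026, 1058 and 477 (-1.40 ± 0.34), and the sugar-sensing factor Mlxipl at 17.9 and 16.5 CPM against 46.8, 58.4, 38.6 and 48.3 (-1.48 ± 0.18). Scd1 (-0.997 ± 0.57), Fasn (-1.07 ± 0.49) and Elovl6 (0.06 ± 0.43) overlapped with resting skin, where control replicate 3 had low values of all 3. Scd2, a desaturase of many tissues, was higher, at 389.5 and 357 CPM against 107 to 257 (1.01 ± 0.32), but was below 2-fold within the adalimumab arm (0.54) and with RLE size factors (0.99). Of 12 sebaceous gland genes, 1 was higher and 0 lower (median -0.19, and 0.02 with column totals), near the 9.53% of all genes called higher.

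**Figure D4:**
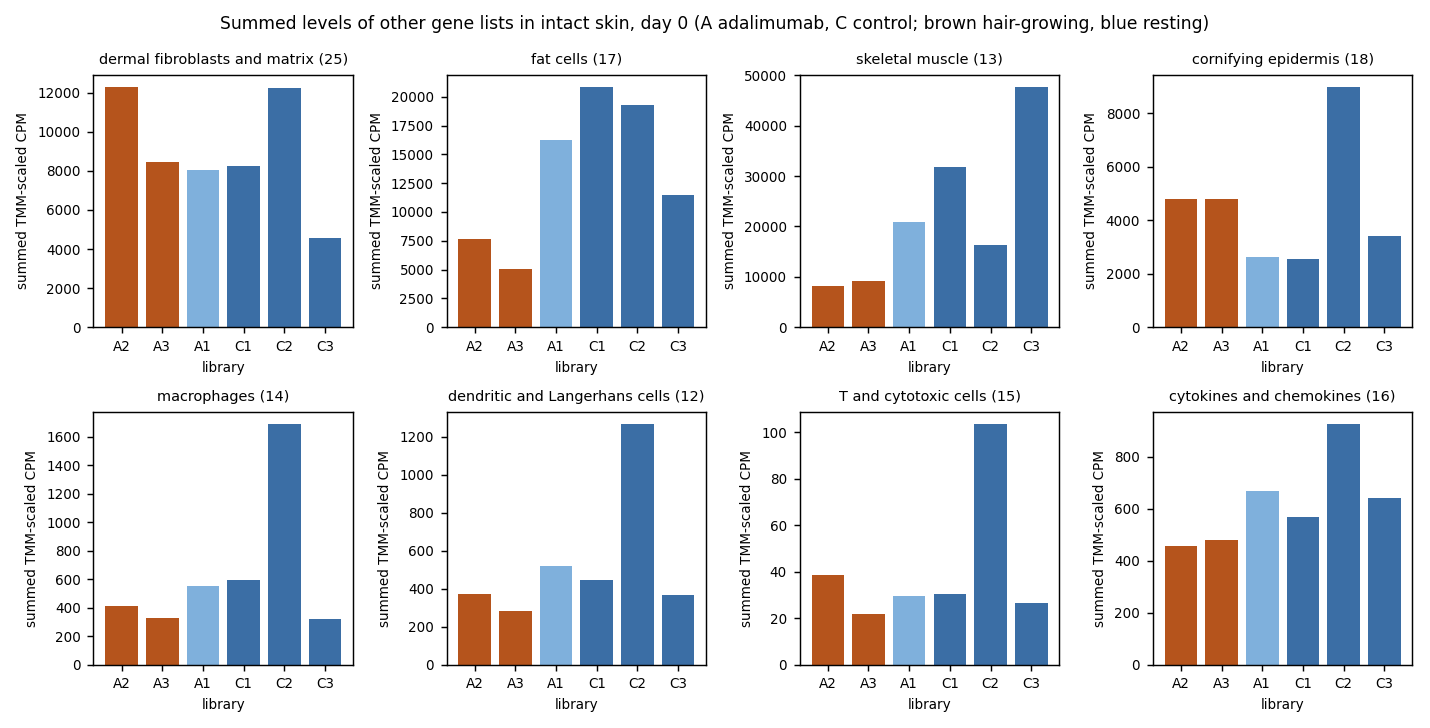
Bars are summed scaled CPM of 8 gene lists (measured members in brackets) in adalimumab replicates 2, 3 and 1 (A2, A3, A1) and control replicates 1 to 3 (C1 to C3) on day 0; brown is hair-growing and blue resting. Fat cell genes (7664 and 5016 against at least 11494 CPM) and skeletal muscle genes (8182 and 9144 against at least 16344 CPM) were lower in both hair-growing libraries, and control replicate 2 had the tallest bar for cornifying epidermis and the 4 immune lists.

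Immune genes were lower by median, and less so without 1 resting library. Control replicate 2 held 1689 CPM of macrophage genes against 318 to 594 CPM in the other resting libraries, 1267 CPM of dendritic and Langerhans cell genes against 368 to 517, and 104 CPM of T cell genes against 26.5 to 30.3. Of 14 macrophage genes, 0 were higher and 1 lower (median -1.01), near the 8.85% of all genes called lower. Without control replicate 2, 1 was higher and 0 were lower (median -0.36). Csf1r, the receptor that macrophages depend on, stood at 30.2 and 21.1 CPM against 40.3, 40.1, 142 and 22.1, and the lysozyme gene Lyz2 at 149 and 91.5 CPM against 265, 299.7, 808 and 138. Both overlapped with control replicate 3. Mrc1, the mannose receptor, overlapped as well (-0.77 ± 0.52).

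Of 12 genes of dendritic and Langerhans cells, 3 were lower and 0 higher (median -0.97), beside 8.85% of all genes lower. Without control replicate 2, 1 of 11 was lower (median -0.45), near the 9.55% of all genes. H2-Aa, a chain of the class II molecule that presents antigen, stood at 86.0 and 63.4 CPM against 129.8, 115, 299 and 94.0 (-1.10 ± 0.46, and -0.60 without that library). The integrin Itgax stood at 11.1 and 6.18 CPM against 16.2, 26.3, 72.8 and 13.6 (-1.90 ± 0.68, and -1.11 without it). Cd74, the chaperone of class II molecules, overlapped (-0.88 ± 0.49).

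Of 15 T and cytotoxic cell genes measured, 1 was higher and 1 lower (median -0.62, and 0.12 without control replicate 2). These shares are near the 9.53% and 8.85% of all genes. Gzmb, a killer cell protease, stood at 0.249 and 0.590 CPM against 0.280, 0.199, 23.6 and 0.253, and its log2 difference turned from -3.85 to 0.77 without that library. Trdc, of gamma delta T cells, stood at 8.53 and 3.44 CPM against 6.50, 4.74, 20.2 and 5.35. Lck, a kinase of T cell receptor signalling, was the higher member, at 3.54 and 3.95 CPM against 1.43, 0.994, 2.56 and 0.982 (1.32 ± 0.43). Of 8 mast cell genes 0 were called, and their median turned from -0.65 to 0.50 without control replicate 2. The mast cell protease gene Mcpt4 stood at 27.5 and 11.8 CPM against 13.2, 22.3, 79.3 and 5.67, and Cpa3 at 30.2 and 12.3 CPM against 8.27, 12.5, 68.8 and 3.80.

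Of 16 cytokine and chemokine genes measured, 7 were lower and 0 higher (median -1.57). Without control replicate 2, 3 were lower and 2 higher (median -0.29), beside 9.55% and 11.4% of all genes. Cxcl2, which draws neutrophils, stood at 0.225 and 0.256 CPM against 0.449, 0.398, 14.8 and 0.539 (-4.05 ± 1.78, and -0.93 without that library). Il1b stood at 0.624 and 1.05 CPM against 0.785, 0.454, 15.6 and 0.507, and its difference turned from -2.37 to 0.52. Tnf stood at 1.15 CPM in both hair-growing libraries against 1.49, 0.511, 6.34 and 0.824, and its difference turned from -0.99 to 0.28. These are counts at the mouse gene in mice that carried HTNF ki/ki. How reads of that allele were counted is not known, so the Tnf values may not give the level of TNF transcripts. Ccl2, which draws monocytes, was -1.98 ± 0.80, and -0.84 without that library.

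A few immune transcripts were low in hair-growing skin whichever resting library was left out. Ccl27a, made by epidermal cells to draw T cells to the skin, stood at 27.4 and 36.2 CPM against 119.5, 85.2, 65.5 and 119.8 (-1.62 ± 0.27). Il33, an alarm signal held in the nuclei of barrier cells, stood at 61.4 and 29.7 CPM against 145, 135, 64.5 and 111 (-1.32 ± 0.38). Ighm, the heavy chain of immunoglobulin M, stood at 116 and 87.6 CPM against 286, 327, 277 and 189 (-1.40 ± 0.24). S100a8, of neutrophils and stressed epidermis, stood at 16.7 and 14.4 CPM against 32.3, 40.3, 42.8 and 22.1 (-1.15 ± 0.27, and -0.94 with column totals). Cxcl12 (0.30 ± 0.22) and Cxcl14 (-0.24 ± 0.22), chemokines made by resting skin, differed little. Il1b, Tnf, Ccl2 and Lck, and also Dcn, Cebpa, Scd2 and Ivl of the other groups, were named after their values were seen.

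Genes of the cornifying epidermis summed to 4803 and 4786 CPM in hair-growing skin, above 3 resting libraries (2537 to 3427 CPM) and below control replicate 2 (9001 CPM). Of 18, 3 were higher and 0 lower (median 0.25), beside 9.53% and 8.85% of all genes. Without control replicate 2, 10 were higher and 0 lower (median 1.45), beside 11.4% of all genes higher. Ivl, a scaffold of the cornified envelope, stood at 52.5 and 104 CPM against 7.85, 7.55, 42.7 and 14.1 (2.11 ± 0.72). Sprr1a, a cross-linked envelope protein, stood at 36.8 and 416 CPM against 2.24, 0.937, 56.3 and 4.63, and Dsc1, an adhesion protein of the upper epidermis and the inner root sheath, at 64.2 and 273 CPM against 8.30, 5.54, 87.05 and 7.73. Both lay above 3 of the 4 resting libraries and overlapped with control replicate 2 only. The epidermal keratin Krt10 overlapped, at 1110.4 and 789 CPM against 594, 579.9, 2313 and 825. Krt16, a keratin of stressed epidermis, stood at 259 CPM in control replicate 2 and at 8.77 to 32.95 in the other 5 libraries.

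Skeletal muscle transcripts, from the thin muscle beneath mouse skin, were lower. All 13 genes of the list were lower (median -1.73, and -1.95 without control replicate 2). Acta1, skeletal muscle actin, stood at 1309.8 and 1614 CPM against 3804, 5577, 2999 and 8056 (-1.81 ± 0.42). The fast myosin genes Myh1 (-1.93 ± 0.38) and Myh4 (-1.44 ± 0.60) were lower too. Myh4 came close to overlap, at 1739 and 2177 CPM against 2216 in control replicate 2, and its difference was -0.42 within the adalimumab arm. The list summed to 8182 and 9144 CPM in the hair-growing libraries and to 16344 to 47741 CPM in the resting ones. Fat cell and muscle transcripts were low in the same 2 libraries, and the part that the muscle content of a sample had in the fat cell values was not tested.

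Endothelial genes were lower in 2 of 12 cases (median -0.61), beside 8.85% of all genes. Pecam1 overlapped, at 44.5 and 34.7 CPM against 68.7, 78.2, 102 and 37.8. Of 5 red blood cell genes, 4 were lower, among them Hba-a1 at 178 and 153 CPM against 222, 487, 482 and 204 (-1.08 ± 0.40), and 0 were lower without control replicate 2. Schwann cell genes were lower in 2 of 7 cases, smooth muscle genes in 1 of 5, neutrophil genes in 1 of 5 and B cell genes in 1 of 2 measured, counts too small to set against the 8.85% of all genes called lower. Interferon response genes were lower in 1 of 12 cases, near that share, and in 0 without control replicate 2. Their median was -0.65, or -0.57 without that library. As a sum they stood at 72.9 and 102 CPM, below the 112 to 155 CPM of the resting libraries. Mitochondrially encoded genes took 9.35% and 8.23% of the counts in the hair-growing libraries and 8.66% to 16.7% in the resting ones. Of 30, 4 were lower, or 10 of 31 without control replicate 2, where 9.55% of all genes were lower.

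Within the adalimumab arm, the 2 hair-growing libraries could be set against its single resting library. The list medians were 8.92 for the inner root sheath, 8.87 for shaft keratins, 10.82 for keratin-associated proteins, 3.28 for matrix regulators, 6.15 for pigment cells, 1.73 for cell division, -1.36 for fat cells and -1.24 for skeletal muscle. Other lists moved more, with cornifying epidermis at 1.62 in place of 0.25 and red blood cells at -0.42 in place of -1.05. That resting library is also part of the comparison over all libraries, so that the 2 comparisons are not independent. The Tchh difference was 8.89 within the arm, since adalimumab replicate 1 had more Tchh than any control. Its inner root sheath list stood 0.89 above the median of the resting libraries on the log2 scale and its shaft keratins 0.79, where the controls stood at -0.27 to 0.00. Among the immune lists, the medians within the arm were -0.60 for macrophages, -0.65 for dendritic and Langerhans cells, 0.22 for T cells, 0.35 for mast cells and -0.57 for cytokines, and -1.48 for the 2 B cell genes, which were at -1.13 over all libraries.

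Libraries of day 3 wounds carry the same mouse numbers and are read here as the same mice, although the labels do not state this link. The rule did not use them, so that a test could be made there. It compares the mice by hair class and by treatment at once: both hair-growing mice and 1 of the 4 others were in the adalimumab arm, and the remaining 3 received vehicle, so that class and treatment cannot be told apart. With edgeR's quasi-likelihood test and Benjamini-Hochberg adjustment over 20098 genes, 0 genes were higher (0%) and 0 lower (0%) in wounds of the 2 hair-growing mice against the 4 others. The smallest adjusted p was 0.741. At an unadjusted p under 0.05 there were 994 genes, 847 of them higher. DESeq2 called 51 genes, 50 of them higher, and limma voom 0. An exact rank-sum test of a single value with 2 mice against 4 cannot give a two-sided p below 0.133.

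Follicle transcripts were scarce in all wounds. Tchh stood at 5.84 and 27.1 CPM in the wounds of adalimumab replicates 2 and 3, against 0.452 in adalimumab replicate 1 and 2.75, 4.63 and 2.06 in the controls (2.73 ± 0.92, edgeR adjusted p = 0.741). Krt71 stood at 0.953 and 26.7 CPM against 0.0847, 0.0278, 0.239 and 0 (7.23 ± 1.48), and Krt25 at 0.685 and 18.6 CPM against 0.113, 0.111, 0.0532 and 0 (7.06 ± 1.38). Lef1 stood at 1.01 and 3.14 CPM against 0.198, 0.305, 1.01 and 0.306 (2.18 ± 0.81), and Corin at 0.953 and 2.49 CPM against 0.226, 0.222, 0.718 and 0.418 (2.11 ± 0.68). The wound of replicate 3 was the highest in all 5, and without it the differences of Tchh, Krt71 and Krt25 were 1.21, 3.35 and 3.22. None passed the adjusted threshold, although the 2 hair-growing mice lay above the 4 others in Tchh, Krt71, Krt25 and Corin.

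Of the other markers, Krt73 separated the mice in wounds, and Padi3 and Tyrp1 did not. Krt73 stood at 0.232 and 7.51 plain CPM against 0.0278 in adalimumab replicate 1 and 0, 0.0267 and 0.0275 in the controls. It did not pass the filter on low counts there. Padi3 stood at 0.357 and 4.46 CPM against 0.790, 0.944, 0.825 and 1.73 (1.17 ± 0.91), and Tyrp1 at 0.387 and 11.3 CPM against 0.0282, 0.416, 3.75 and 0.195 (2.40 ± 1.77). The wound of replicate 2 lay below all resting mice in Padi3 and among them in Tyrp1. Mki67 stood at 114 and 237 CPM against 105, 310.4, 289.9 and 289 (-0.50 ± 0.50). Of 22 cell division genes, 0 had a positive difference, where 45.8% of all genes measured in wounds had one. The list summed to 782 and 1481 plain CPM in the hair-growing mice and to 848 in the resting adalimumab mouse. In the controls it summed to 2162, 1789 and 1706. The low values were thus shared by the resting mouse of the adalimumab arm, and within that arm the Mki67 difference was 0.82.

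Among genes with a mean log2 CPM of 1 or above, those with the smallest unadjusted p in wounds included Krt25 and the following. Mmp13, a collagenase of wound edges, stood at 171 and 62.1 CPM against 8.21, 7.05, 13.4 and 7.52 (3.69 ± 0.46, edgeR adjusted p = 0.741). The neutrophil attractant Cxcl2 stood at 1241 and 52.8 CPM against 25.5, 13.0, 14.2 and 10.8 (5.35 ± 1.01, and 1.73 without replicate 2), and the neutrophil protein S100a9 at 616 and 146 CPM against 36.2, 7.97, 45.9 and 18.2 (3.81 ± 0.80). Asprv1, a protease of the upper epidermis, stood at 38.9 and 38.5 CPM against 2.43, 1.58, 6.09 and 0.724 (3.84 ± 0.76). Mmp9 (1.92 ± 0.39), Slc7a11 (3.25 ± 0.68) and Retnlg (5.52 ± 1.07) had differences in the same direction. On the lower side, Hpgd, which inactivates prostaglandins, differed by -1.68 ± 0.41, Ttyh2 by -1.27 ± 0.38, Ebf1 by -1.004 ± 0.28 and Aqp1 by -0.94 ± 0.26. All of these had the same adjusted p of 0.741. Wound tissue varied between mice in other ways: outer root sheath genes summed to 6.72 plain CPM in the wound of adalimumab replicate 1 and to 591 to 8089 in the other 5, and its fat cell genes to 22028 against 709 to 4232. Their part in the day 3 values was not tested.

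**Figure D5:**
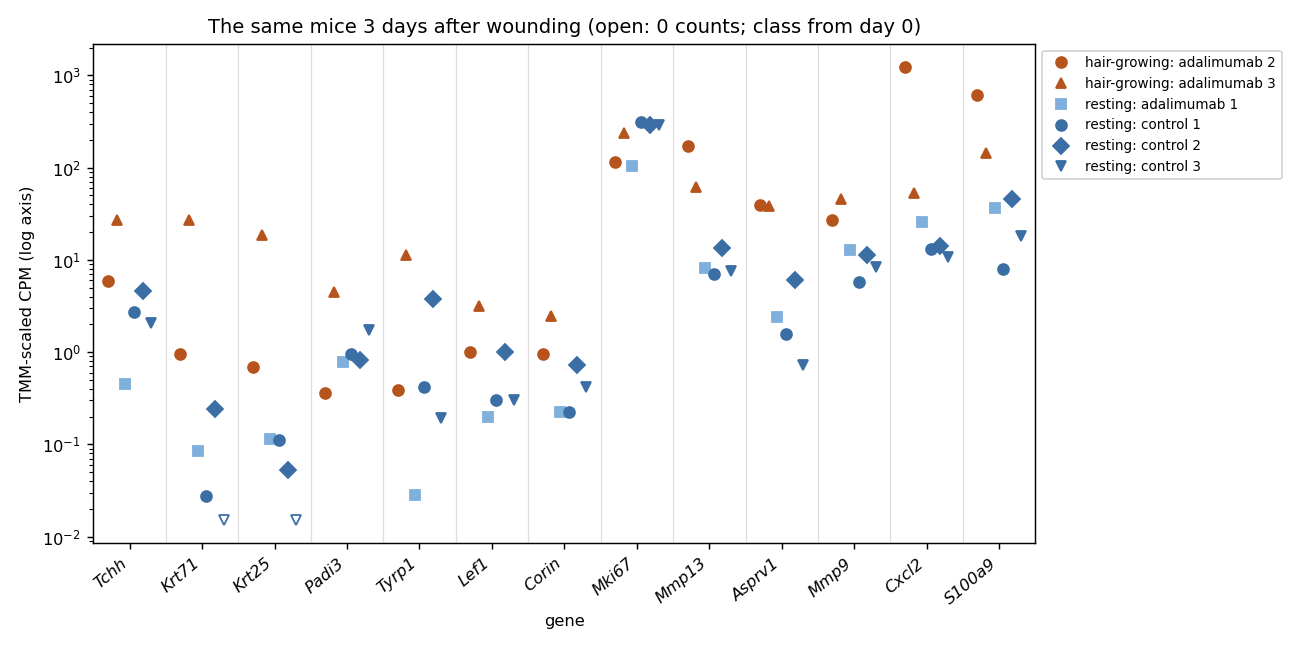
Scaled CPM (log axis) of 13 genes in day 3 wounds with the same 6 mouse numbers, coloured by the class of their day 0 library (brown hair-growing, blue resting); open symbols mark 0 counts. Replicate 3 of the adalimumab arm (triangle) is highest for Tchh, Krt71, Krt25, Padi3, Tyrp1, Lef1 and Corin, and replicate 2 (brown circle) for Mmp13, Cxcl2 and S100a9.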

How the data were processed

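Whole-skin RNA was measured by stranded total RNA sequencing (SMARTer Pico kit, 50-base single reads), per the labels' protocols. The deposited table holds raw read counts for 56379 genes. Reads were aligned with STAR to GRCm39, per the submitters' processing notes, while no source used here names how genes were counted, on which annotation or with which strand option. Groups came from the labels, and hair class from Tchh at 100 CPM over column totals. Counts were filtered with filterByExpr (minimum count 10, minimum total 15), scaled by TMM and fitted with edgeR 4.0.16 in R 4.3.3 (quasi-likelihood, prior count 0.125). Day 0 and day 3 were fitted apart, with no covariates, and day 3 p-values were adjusted by Benjamini-Hochberg over 20098 genes at a threshold of 0.05. No label says that libraries came from separate litters or cages, and the p-values therefore reflect only the spread among these samples.

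Totals of 34443284 to 37494760 counts per library on day 3 and the totals given for day 0 make counting error small for all but the rarest transcripts. The median SE of a log2 difference was 0.277 on day 0 and 0.438 on day 3, and the common biological coefficient of variation was 29.0% and 52.2%. The contents of no 2 libraries were identical. Genes were named by a rule: the markers, up to 4 members of each list with the highest mean CPM and up to 2 with the largest difference, the 8 largest differences each way outside the lists (mean log2 CPM of 3 or above), the 8 smallest p each way on day 3 among genes with a mean log2 CPM of 1 or above, and the 5 largest ratios each way between the hair-growing libraries. The members and the 28 gene lists were chosen with earlier results of these data known. Alternatives were RLE size factors, column totals, other filters, a 4-fold threshold, a replicate block, each library left out, comparison within the adalimumab arm, DESeq2 1.42.0 and limma 3.58.1. The model fits were tested on simulated data. The 11 libraries of days 7 and 10 entered no comparison. Values of 1 gene are not reported here.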

Additional observations from a re-analysis of the deposited data

Results flagged for a closer look

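Within the 4 resting libraries, or the 4 wounds of resting mice, a sample was singled out where its gap to the nearest other was too large a part of the whole range (above Dixon's 95% limit for 4 samples). Of 28 list sums 4 were, of 111 genes of day 0 23 were, and of 19 genes of day 3 4 were. Chance flags about 1 in 20 groups. The genes searched were those named in the text, some of them chosen after their values were seen, and genes of the same library are not independent. The counts therefore cannot be judged against that rate.

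Most were high values of control replicate 2 on day 0. Among lists, keratin-associated proteins summed to 22.3 CPM there against at most 5.83 in the other resting libraries, cornifying epidermis to 9001 against at most 3427, dendritic and Langerhans cells to 1267 against at most 517, and T and cytotoxic cells to 104 against at most 30.3. Among immune genes, that library had 96.3 CPM of Ccl2, 14.8 of Cxcl2, 15.6 of Il1b and 6.34 of Tnf (counted at the mouse gene, in HTNF ki/ki mice). It had 142 CPM of Csf1r, 23.6 of Gzmb, 20.2 of Trdc, 68.8 of Cpa3 and 324 of Nr4a1. Among epithelial genes it had 259 CPM of Krt16, 2313 of Krt10, 56.3 of Sprr1a and 87.05 of Dsc1. Among follicle genes it had 24.1 CPM of Krt25, 21.1 of Krtap3-2 and 5.49 of Dlx3.

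Adalimumab replicate 1 was the high resting library in 4 follicle genes, with 2.30 CPM of Krt71, 0.701 of Krt73, 0.308 of Krtap7-1 and 0.449 of Shh. Control replicate 3 was low in Cebpa, at 111 CPM, and high in Myh1, at 7093 CPM. Control replicate 1 was high in Top2a, at 63.8 CPM. In wounds of day 3, control replicate 2 was high in Lef1 (1.01 CPM) and Tyrp1 (3.75 CPM), control replicate 3 was high in Padi3 (1.73 CPM), and adalimumab replicate 1 was low in Mki67 (105 CPM).

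Outside the comparisons, 2 libraries of day 10 of the adalimumab arm held Tchh above the control libraries of that day. Replicate 1 stood at 204 and replicate 2 at 37.1 plain CPM, against 5.82 to 9.75 in the controls.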

How the results depend on the processing

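On day 0, column totals gave 2692 genes higher and 1102 lower, no filter on low counts gave 3261 higher, and a 4-fold threshold gave 831 and 176. Leaving out each library gave 1970 to 2609 higher and 1759 to 3064 lower, the highest counts both without adalimumab replicate 2. Without control replicate 2, 2338 were higher (11.4% of 20594) and 1966 lower (9.55%). On day 3, DESeq2 called 50 higher and 1 lower, and the comparison within the adalimumab arm, chosen after seeing the data and taking its lone resting mouse to vary like the others, 177 and 34. Leaving out each mouse gave 0 to 6 genes, with 6 higher without adalimumab replicate 3. Without that mouse the day 3 differences of Padi3 and Tyrp1 turned to -1.60 and -1.52 (highest values on leaving out a mouse 2.05 and 4.75), and without adalimumab replicate 2 that of Cxcl2 was 1.73 and of Retnlg 2.11. Within the adalimumab arm that of Mki67 was 0.82. The cause was not tested. The list counts without control replicate 2 were also added after seeing the data. Replicate numbers name different mice in the 2 arms, and same-numbered libraries correlated at 0.0633 to 0.193 on day 0 and at -0.0725 to 0.283 on day 3. A fit with the replicate block called 2057 genes higher and 1762 lower on day 0 and 0 on day 3. With 2 hair-growing mice, even large differences in wounds did not pass the adjusted threshold, among them log2 differences of 7.23 for Krt71 and 3.69 for Mmp13. The 0 genes called there therefore do not show that the wounds were alike.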
